A study of Mus musculus with 8 samples.

Results

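The proteasome genes of PD-1hi effector CD8 T cells were followed after blockade of the receptor for interleukin 10 (IL-10R) in mice that carried a B cell leukaemia. The members are the genes whose symbol begins with Psma, Psmc or Psmd and a digit, or is Psmb1 to Psmb7, read from array rows that carry exactly 1 gene symbol, with the brightest row kept for each gene. This gave 35 of the 22180 genes with such a row. Of these, 14 encode the core particle, 20 the regulatory particle and its assembly chaperones, and 1, Psmc3ip, matches the prefix but encodes a meiotic recombination factor and no proteasome subunit, so it is described apart. Psma4 is no member, because its rows carry a second symbol. The 4 anti-IL-10R arrays hold RNA of CD8 T cells from female C57BL/6 mice that had received Eµ-TCL1 leukaemia cells and were then given an antibody blocking IL-10R. The 4 isotype arrays hold the same kind of cells from mice with the same leukaemia given an isotype control antibody. Treatment started 3 weeks after transplantation and lasted 2 weeks, with injections into the peritoneum. The labels give an injection interval longer than this treatment, so the dosing schedule is unclear. At 5 weeks spleen cells were sorted by a gate of Lin-, TCRb+, CD8+, CD127low, CD44int-hi and PD-1hi. The strain is also written C56BL/6 in the labels. Eµ-TCL1 is a mouse model of chronic lymphocytic leukaemia in which a transgene acts in B cells, so the T cells themselves carry no labelled genetic change. No group without leukaemia was analysed here.

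The proteasome degrades proteins that were marked with ubiquitin. Its barrel-shaped core particle has outer rings of alpha subunits, which gate the entrance, and inner rings of beta subunits, of which the products of Psmb5, Psmb6 and Psmb7 cut peptide bonds. The regulatory particle caps the core: a ring of ATPases (the Psmc genes) unfolds the substrate, and the non-ATPase subunits (most Psmd genes) bind ubiquitin, remove it and hold the lid together. T cells that divide need proteasomes to clear cell cycle regulators, and interferon lets Psmb8, Psmb9 and Psmb10 take the places of Psmb5, Psmb6 and Psmb7 in the immunoproteasome.

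Values are log2 signals as deposited. A difference is the anti-IL-10R mean minus that of the isotype arrays, on the log2 scale. Signals of different genes come from different probes and were not compared as levels. Array medians lay between 5.19 and 5.31. Isotype replicate 1 stood apart: its values correlated with those of the other arrays at 0.915 to 0.929 across the 12019 tested genes, which are not independent replicates, while the other 7 arrays correlated at 0.962 to 0.986 with one another. Results are therefore given with and without it. The markers of the sorted cells were bright: the mean over 7 of 8 listed CD8 T cell markers was 11.81 to 11.86 on the anti-IL-10R arrays, against 11.35 to 11.66 on the isotype arrays, lowest on isotype replicate 1. The labels do not say that each array came from a separate mouse, so p-values measure only the spread between these arrays. In RNA of sorted cells, fewer cells that express a gene and less RNA per cell cannot be told apart.

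Nearly all proteasome genes had lower signals after IL-10R blockade, by small amounts. The difference was below 0 for 34 of the 35 members (45.3% of all tested genes), and it lay between −0.64 (Psmc3ip) and 0.32 (Psmd10). No member passed the threshold of an adjusted p below 0.05 in either direction among the 33 that were bright enough to be tested, where limma called 1.30% of all tested genes lower and 1.23% higher (2.53% in all). Those calls over all genes split into 156 lower and 148 higher, against 427 and 204 after quantile normalization and 75 and 42 after centring each array on its median. At an unadjusted p below 0.05, 13 members were lower and 0 higher (8.53% and 11.5% of all tested genes). At an adjusted p below 0.1 there were 5, all lower (3.49% of tested genes): Psmd7, Psmc1, Psmd3, Psmd12 and Psmc5. In 8 members every anti-IL-10R array lay below every isotype array (5.99% of tested genes): Psmb2, Psmb5, Psmc1, Psmc4, Psmc5, Psmd3, Psmd7 and Psmd12. Without isotype replicate 1 the same fit called 8 members lower and 0 higher (5.94% and 3.37% of tested genes). The difference was then below 0 in 34 (51.0% of tested genes), and in 23 the anti-IL-10R arrays all lay below the isotype arrays (14.2%). Those 8 were Psmc1, Psmc4, Psmc5, Psmc6, Psmd3, Psmd7, Psmd12 and Psmc3ip, so none encodes a core subunit. Whether core and regulatory genes differ in this was not tested by that count.

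**Figure D1:**
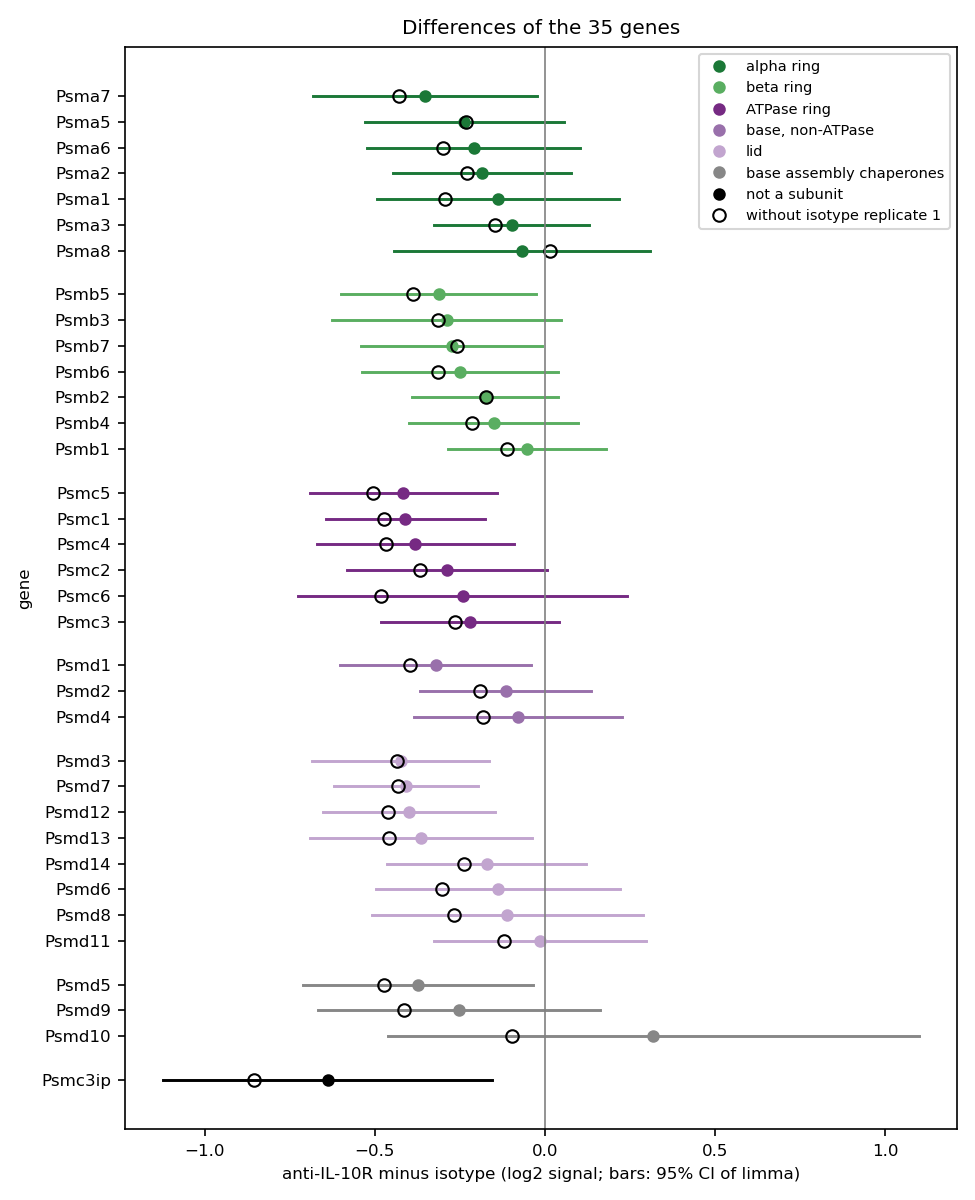
Difference between anti-IL-10R and isotype arrays (log2 signal, x axis) for each of the 35 genes (rows), grouped by place in the proteasome, with filled points and 95% confidence intervals for all 8 arrays and open points without isotype replicate 1. Of the filled points 34 lie left of 0, Psmd10 lies at 0.32, and the ATPase genes Psmc5 and Psmc1 and the lid genes Psmd3, Psmd7 and Psmd12 lie at −0.40 or lower.

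The promoters of 4 of these genes are shown because they belong to the 2 core and the 2 regulatory genes with the smallest p among the 28 members in the RefSeq promoter table (build GRCm38.p6). Each run is the 250 bases before the annotated start of the gene, 5′ to 3′ on the strand of the gene. They are Psmb5 at chr14:54617996-54618245 (minus strand), Psma7 at chr2:180042465-180042714 (minus strand), Psmc1 at chr12:100109952-100110201 (plus strand) and Psmd12 at chr11:107479278-107479527 (plus strand). Capitals mark matches, on either strand, to TGACNNNGC (the core of the antioxidant response element, which NRF1, the activator of proteasome genes, binds), CCAAT (the NF-Y box) or CACGTG (the E-box that MYC and MAX bind).
Psmb5: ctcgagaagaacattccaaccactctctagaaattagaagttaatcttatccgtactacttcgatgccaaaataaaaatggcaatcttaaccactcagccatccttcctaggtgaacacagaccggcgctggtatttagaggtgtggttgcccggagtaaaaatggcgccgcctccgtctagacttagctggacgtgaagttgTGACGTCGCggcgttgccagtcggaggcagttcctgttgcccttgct
Psma7: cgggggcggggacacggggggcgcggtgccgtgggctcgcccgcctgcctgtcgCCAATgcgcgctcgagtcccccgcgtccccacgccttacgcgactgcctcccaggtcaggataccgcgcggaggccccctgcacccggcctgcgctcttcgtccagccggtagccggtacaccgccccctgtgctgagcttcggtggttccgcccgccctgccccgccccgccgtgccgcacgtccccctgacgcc
Psmc1: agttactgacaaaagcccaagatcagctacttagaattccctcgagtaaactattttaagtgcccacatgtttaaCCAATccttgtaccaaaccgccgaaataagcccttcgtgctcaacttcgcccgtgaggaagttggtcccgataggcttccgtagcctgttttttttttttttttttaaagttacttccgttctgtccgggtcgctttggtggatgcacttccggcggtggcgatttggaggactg
Psmd12: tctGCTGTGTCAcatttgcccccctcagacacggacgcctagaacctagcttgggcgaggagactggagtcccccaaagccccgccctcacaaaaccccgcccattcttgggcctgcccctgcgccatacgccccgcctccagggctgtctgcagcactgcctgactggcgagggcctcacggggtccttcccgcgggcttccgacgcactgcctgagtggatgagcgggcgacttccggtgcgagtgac
The match in Psmb5 is TGACNNNGC and begins 47 bases before the start, whereas that in Psmd12 lies on the opposite strand at 247 bases. Psma7 and Psmc1 hold CCAAT at 196 and 175 bases. TGACNNNGC was found in 5 of the 28 members (Psmb5, Psmb6, Psmc6, Psmd9 and Psmd12), or 17.9%, against 11.5% of the 27025 genes in the table. CCAAT was found in 12 members (42.9%, against 37.5%), of which 6 were among 10 core genes and 5 among 17 regulatory genes. CACGTG was found in 1 member, Psmd9 (3.57%, against 6.86%). Matches of different motifs shared no bases in the members. These matches describe letters in a window, and binding was not measured.

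In the alpha ring, all 7 genes had a difference below 0 and none passed the threshold. Psma7 had the lowest, with 10.64, 10.79, 10.65 and 10.44 on anti-IL-10R replicates 1 to 4, against 10.75, 11.33, 10.81 and 11.03 on isotype replicates 1 to 4. The groups overlapped only through anti-IL-10R replicate 2, which lay above isotype replicate 1. The difference was −0.35 ± 0.15 (SE, limma adjusted p = 0.222), and −0.43 ± 0.14 without isotype replicate 1 (adjusted p = 0.0824). Psma1, Psma2, Psma3 and Psma6, which encode further alpha subunits, differed by −0.10 to −0.21, with overlapping groups. Their adjusted p ranged from 0.419 (Psma2) to 0.675 (Psma1). When isotype replicate 1 was left out, Psma1 differed by −0.29 (adjusted p = 0.0833) and Psma3 by −0.15 (adjusted p = 0.327), and the groups of both, like those of Psma7, no longer overlapped. Psma2 and Psma6 then differed by −0.23 and −0.30, still with overlap. Psma5 was dim on this array, with 4.39, 4.55, 4.61 and 4.68 on the anti-IL-10R arrays, against 4.81, 4.52, 4.81 and 5.04 on the isotype arrays. Its mean lay below the limit of 5.24 for dim genes, so it was not tested, and its difference was −0.24 ± 0.13. A second, dimmer row of Psma5 differed by −0.44, with 3.74 to 4.70 on the anti-IL-10R arrays, against 4.61 to 4.82 on the isotype arrays. Psma8, the alpha subunit of the testis proteasome, was also below that limit: it had 3.79, 4.48, 4.04 and 3.90 on the anti-IL-10R arrays, against 4.37, 3.89, 4.22 and 4.01 on the isotype arrays. Its groups overlapped widely, its difference was −0.07 ± 0.17, and without isotype replicate 1 it was 0.015.

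In the beta ring, all 7 genes had a difference below 0 and none passed the threshold, the 3 catalytic subunits included. Psmb5, the chymotrypsin-like subunit, had 11.31, 11.35, 11.29 and 11.23 on the anti-IL-10R arrays, against 11.38, 11.91, 11.50 and 11.64 on the isotype arrays. The groups did not overlap, and isotype replicate 2 stood highest. The difference was −0.31 ± 0.13 (SE, limma adjusted p = 0.215; −0.39 ± 0.11 and adjusted p = 0.0604 without isotype replicate 1). Psmb6, the caspase-like subunit, had 9.76, 9.94, 9.79 and 9.75 on the anti-IL-10R arrays, against 9.87, 10.35, 9.92 and 10.11 on the isotype arrays. Here anti-IL-10R replicate 2 exceeded isotype replicates 1 and 3, and the difference was −0.25 ± 0.13 (adjusted p = 0.32). Psmb7, the trypsin-like subunit, had 10.08, 10.22, 10.11 and 10.04 on the anti-IL-10R arrays, against 10.43, 10.55, 10.12 and 10.45 on the isotype arrays. Only isotype replicate 3 lay within the anti-IL-10R range, and the difference was −0.27 ± 0.12 (adjusted p = 0.237). Among the beta subunits without catalytic activity, Psmb2 had non-overlapping groups at a difference of −0.18 ± 0.10 (adjusted p = 0.35), with means of 11.22 ± 0.09 on the anti-IL-10R arrays and 11.40 ± 0.01 on the isotype arrays (SD, n = 4 each). Psmb1, Psmb3 and Psmb4 differed by −0.05 to −0.29 with overlapping groups. With isotype replicate 1 left out, Psmb1 and Psmb4 differed by −0.11 and −0.22 and their groups no longer overlapped.

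In the ATPase ring all 6 genes lay between −0.22 and −0.42, and between −0.26 and −0.51 without isotype replicate 1. Psmc1 had 9.38, 9.46, 9.44 and 9.41 on the anti-IL-10R arrays, against 9.64, 9.89, 9.84 and 9.95 on the isotype arrays. The anti-IL-10R arrays were close together and all below the lowest isotype array, replicate 1. The difference was −0.41 ± 0.10 (SE, 95% CI −0.64 to −0.18, limma adjusted p = 0.0699), and −0.47 ± 0.09 without isotype replicate 1 (adjusted p = 0.0141). Psmc5 had 9.46, 9.65, 9.59 and 9.41 on the anti-IL-10R arrays, against 9.67, 10.02, 10.08 and 10.01 on the isotype arrays. The groups stood apart by a narrow gap, again at isotype replicate 1. Its difference was −0.42 ± 0.12 (adjusted p = 0.0995; −0.51 ± 0.10 and adjusted p = 0.0162 without isotype replicate 1). Psmc4 differed by −0.38 ± 0.13 without overlap (adjusted p = 0.141), and Psmc2 and Psmc3 by −0.29 ± 0.13 and −0.22 ± 0.12 with overlap. Psmc2 has a second, dimmer row, in which the anti-IL-10R arrays spanned 6.73 to 7.26 and the isotype arrays 7.63 to 8.37, so the 2 rows have one direction and differ in size (−1.05 and −0.29). Psmc6 had 9.33, 9.38, 9.23 and 9.49 on the anti-IL-10R arrays, against 8.88, 9.84, 9.79 and 9.89 on the isotype arrays. Isotype replicate 1 was the lowest of the 8 arrays and the other 3 isotype arrays the highest. The difference was −0.24 ± 0.22 with that array (adjusted p = 0.584) and −0.48 ± 0.10 without it (adjusted p = 0.0191). Without isotype replicate 1 the groups did not overlap in any of the 6 ATPase genes (14.2% of tested genes).

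In the lid, which sits over the ATPase base and releases ubiquitin chains, the 8 genes ranged from −0.42 to −0.01. Psmd7, the partner that the deubiquitinase needs, had 9.68, 9.61, 9.62 and 9.70 on the anti-IL-10R arrays, against 9.99, 10.09, 10.01 and 10.15 on the isotype arrays. Here isotype replicate 1 sat with its group, and the gap between the groups exceeded the spread within either. The difference was −0.41 ± 0.09 (SE, 95% CI −0.62 to −0.20, limma adjusted p = 0.0558), the smallest p of all members, and −0.43 ± 0.09 without isotype replicate 1 (adjusted p = 0.0203). The scaffold subunit gene Psmd3 had 8.61, 8.95, 8.65 and 8.87 on the anti-IL-10R arrays, against 9.16, 9.29, 9.23 and 9.10 on the isotype arrays. These groups did not overlap either, and the difference was −0.42 ± 0.12 (adjusted p = 0.0828; 0.0462 without isotype replicate 1). Psmd12, another scaffold subunit gene, had 8.76, 8.94, 8.79 and 8.69 on the anti-IL-10R arrays, against 9.02, 9.32, 9.16 and 9.29 on the isotype arrays. It differed by −0.40 ± 0.11 without overlap (adjusted p = 0.0891; 0.0243 without isotype replicate 1). Psmd14, the deubiquitinase itself, had 8.997, 9.30, 9.26 and 9.001 on the anti-IL-10R arrays, against 9.12, 9.45, 9.21 and 9.48 on the isotype arrays. Unlike those of its partner Psmd7, its groups overlapped, and the difference was −0.17 ± 0.13 (adjusted p = 0.511). Psmd14 and Psmd7 were not tested against each other. Psmd13 differed by −0.37 ± 0.15, and Psmd6, Psmd8 and Psmd11 by −0.14, −0.11 and −0.01, all with overlap. Leaving out isotype replicate 1, these 3 differed by −0.30, −0.27 and −0.12, Psmd13 differed by −0.46, and the groups of Psmd6 and Psmd13 no longer overlapped.

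In the base, the scaffold gene Psmd1 differed by −0.32 ± 0.13 (SE, limma adjusted p = 0.195) and Psmd2, a scaffold and ubiquitin receptor, by −0.12 ± 0.11 (adjusted p = 0.618). With isotype replicate 1 left out they differed by −0.40 and −0.19 without overlap. Psmd4, a ubiquitin receptor, had 8.22, 8.33, 8.16 and 8.11 on the anti-IL-10R arrays, against 7.98, 8.56, 8.24 and 8.36 on the isotype arrays. Isotype replicate 1 was the lowest of the 8 arrays, and the difference was −0.08 ± 0.14 (adjusted p = 0.794; −0.18 ± 0.11 without that array). The chaperones that help the base assemble and then leave are Psmd5, Psmd9 and Psmd10. The first 2 differed by −0.37 ± 0.15 and −0.25 ± 0.18 with overlap, and by −0.47 and −0.41 without overlap once isotype replicate 1 was left out (adjusted p = 0.0526 and 0.0929). Psmd10, which encodes gankyrin, was the only member with a difference above 0. It had 8.99, 9.24, 9.04 and 8.88 on the anti-IL-10R arrays, against 7.47, 9.26, 9.09 and 9.06 on the isotype arrays. Isotype replicate 1 lay far below the other 7 arrays. With it the difference was 0.32 ± 0.35 (SE, limma adjusted p = 0.658) and without it −0.10 ± 0.11.

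Psmc3ip encodes a partner of the strand exchange proteins of homologous recombination, first known as a binding partner of an ATPase subunit. It had 6.56, 6.41, 6.44 and 6.03 on the anti-IL-10R arrays, against 6.35, 7.21, 7.15 and 7.30 on the isotype arrays. Apart from isotype replicate 1, the isotype arrays lay well above all anti-IL-10R arrays. The difference was −0.64 ± 0.22 (SE, limma adjusted p = 0.140), and −0.86 ± 0.13 without isotype replicate 1 (adjusted p = 0.00858). On the brightest row of each gene, this was larger in size than that of any proteasome subunit in either fit. The dimmer row of Psmc2 differed by −1.05.

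**Figure D2:**
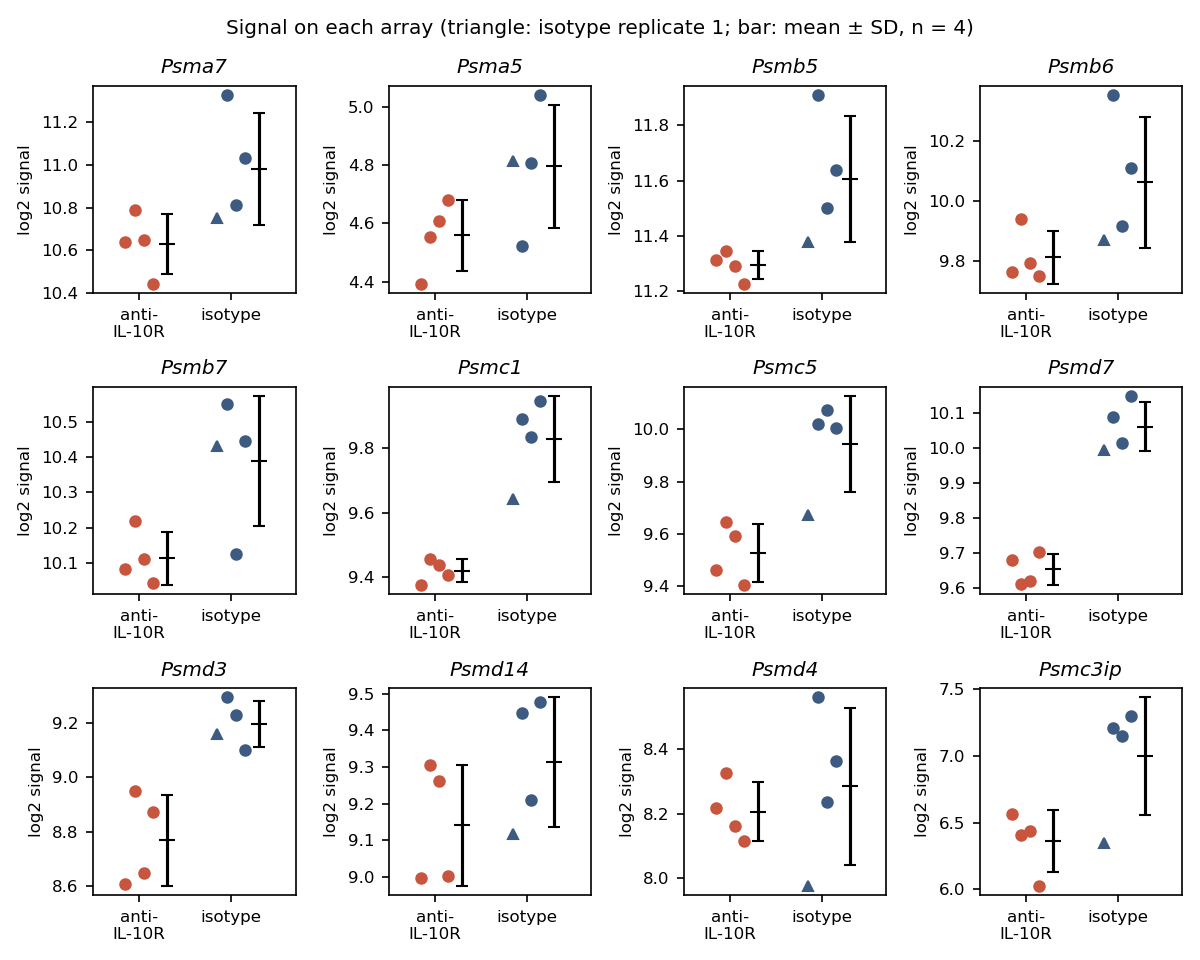
Log2 signal (y axis) of 12 genes on each of the 4 anti-IL-10R arrays (left in each panel) and the 4 isotype arrays (right), with bars for the mean and SD and a triangle for isotype replicate 1; each panel has its own y range. In Psmb5, Psmc1, Psmc5, Psmd7 and Psmd3 all anti-IL-10R points lie below all isotype points, and in Psmd4 the triangle is the lowest point.

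The core and the regulatory particle were then compared. The median difference was −0.20 over the 14 core genes, all below 0, and −0.27 over the 20 regulatory genes, of which 19 were below 0, beside 0.03 over all tested genes. Without isotype replicate 1 the medians were −0.25 for the core and −0.40 for the regulatory genes. With the assembly chaperones left out instead, the regulatory median was −0.29 over 17 genes, all below 0. The mean signal of the core genes was 9.44, 9.59, 9.49 and 9.47 on the anti-IL-10R arrays, against 9.57, 9.84, 9.63 and 9.75 on the isotype arrays, so that anti-IL-10R replicate 2 lay just above isotype replicate 1. The mean of the regulatory genes was 9.13, 9.23, 9.16 and 9.07 on the anti-IL-10R arrays, against 9.06, 9.57, 9.43 and 9.51 on the isotype arrays. There isotype replicate 1 was the lowest of all arrays, whereas the other 3 isotype arrays were the highest. These 20 genes include the chaperones, whose mean was 7.65 on isotype replicate 1, against 8.01 to 8.59 on the others. In the ATPase ring and the lid the lowest mean was that of anti-IL-10R replicate 4 (9.40 and 9.25), against 9.49 and 9.30 on isotype replicate 1. In the non-ATPase base genes isotype replicate 1 was lowest, at 8.97. Isotype replicate 1 was the lowest isotype array in 19 of the 20 regulatory genes, in 8 of the 14 core genes and in 53.6% of all tested genes. Isotype replicate 2 was the highest of the 8 arrays in 12 of the 14 core genes, in 10 of the 20 regulatory genes and in 15.0% of all tested genes.

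Within an array, the core mean minus the regulatory mean was 0.31, 0.36, 0.33 and 0.40 on the anti-IL-10R arrays, against 0.51, 0.28, 0.20 and 0.25 on the isotype arrays. The 4 anti-IL-10R values lay above 3 isotype values and below that of isotype replicate 1. The group means were 0.35 ± 0.04 on the anti-IL-10R arrays and 0.31 ± 0.14 on the isotype arrays (SD, n = 4 each), so their difference of 0.04 was smaller than the spread between the isotype arrays. Without isotype replicate 1 the difference was 0.11 and the SD of the isotype arrays 0.04. With all arrays kept and the assembly chaperones left out, the difference was 0.07. As a score over chosen members it carries no p.

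**Figure D3:**
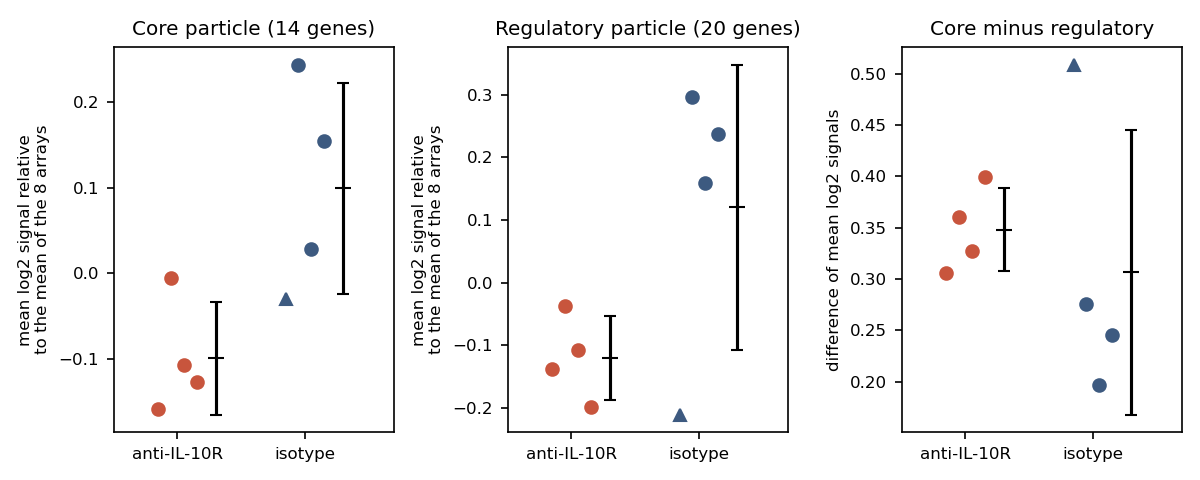
Mean log2 signal of the core and of the regulatory genes relative to the mean of the 8 arrays (left and middle), and the core mean minus the regulatory mean within each array (right), for anti-IL-10R and isotype arrays; bars show the mean and SD of 4 arrays and the triangle isotype replicate 1. The triangle is the lowest point for the regulatory genes, their assembly chaperones included, and, at 0.51, the highest for the core minus regulatory values.

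The immunoproteasome subunits, which replace the catalytic ones, had differences between 0.02 and 0.13, or between −0.05 and 0.02 without isotype replicate 1. Psmb8 had 9.95, 10.05, 10.02 and 9.92 on the anti-IL-10R arrays, against 9.76, 10.13, 9.93 and 10.03 on the isotype arrays, a difference of 0.02 ± 0.11 (SE, limma adjusted p = 0.942). Psmb9 and Psmb10 differed by 0.08 ± 0.11 and 0.13 ± 0.13 (adjusted p = 0.704 and 0.611), and by 0.01 and 0.02 without isotype replicate 1, where Psmb8 differed by −0.05. Each was then set against the constitutive subunit whose place it takes, a comparison chosen after the values were seen and given without a test. Psmb8 minus Psmb5 was −1.36, −1.30, −1.27 and −1.31 on the anti-IL-10R arrays, against −1.62, −1.78, −1.57 and −1.60 on the isotype arrays. The groups did not overlap with or without isotype replicate 1, and the difference between them was 0.33 (0.34 without it). Psmb9 minus Psmb6 was 1.83, 1.67, 1.75 and 1.79 on the anti-IL-10R arrays, against 1.41, 1.21, 1.66 and 1.42 on the isotype arrays. These groups did not overlap either, but they nearly touched, at 1.67 on anti-IL-10R replicate 2 and 1.66 on isotype replicate 3. The difference between them was 0.33. Psmb10 minus Psmb7 was 1.39, 1.35, 1.41 and 1.44 on the anti-IL-10R arrays, against 0.61, 0.95, 1.36 and 1.05 on the isotype arrays. In this pair isotype replicate 3 reached the anti-IL-10R range, and the difference was 0.41 (0.28 without isotype replicate 1). Each such value mixes signals of different probes, so only its difference between the groups can be read.

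**Figure D4:**
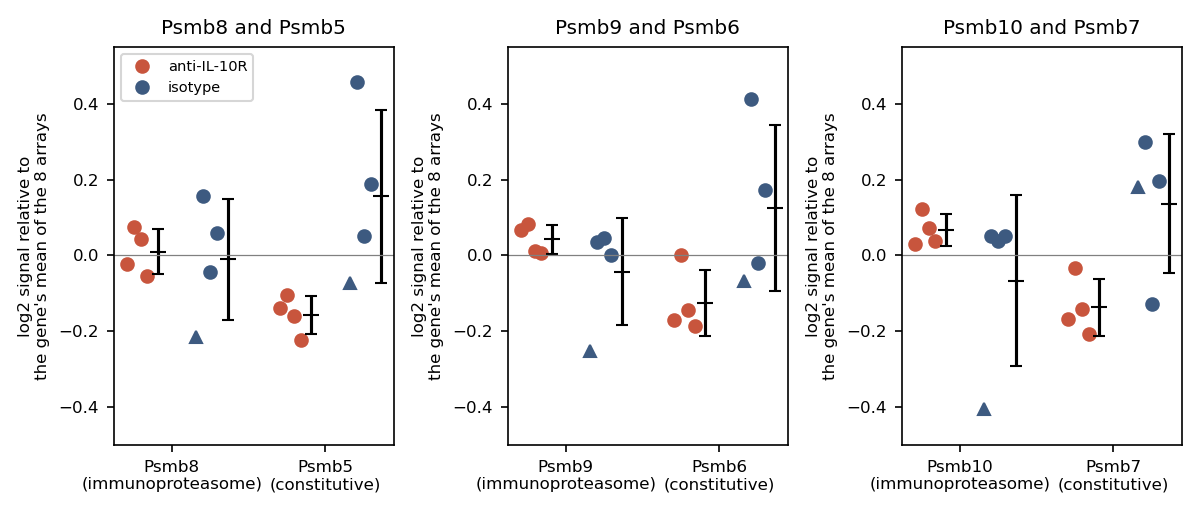
Log2 signal of each immunoproteasome subunit (left in each panel) and of its constitutive counterpart (right), relative to the mean of that gene over the 8 arrays, on anti-IL-10R and isotype arrays; bars show the mean and SD of 4 arrays and triangles isotype replicate 1. The constitutive subunits have lower anti-IL-10R than isotype means, by 0.25 to 0.31, while those of the immunoproteasome subunits differ by 0.02 to 0.13 in the other direction.

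Other genes of the pathway, in lists chosen with earlier results of these data known, gave 1 call among 37 tested genes (2.7%), beside 2.53% of all tested genes. They gave 6 calls without isotype replicate 1, all lower, beside 5.94% of tested genes called lower. All 5 chaperones that build the core particle had differences below 0 (median −0.38), but 0 of 5 passed. Psmg4 differed by −0.40 ± 0.13 without overlap (SE, limma adjusted p = 0.119) and Psmg3 by −0.38 ± 0.14 (adjusted p = 0.176). Without isotype replicate 1 the difference of Psmg3 was smaller in size, at −0.28 (adjusted p = 0.162). Psmg1 differed by −0.71 ± 0.30 with overlap (adjusted p = 0.223). Without isotype replicate 1, Psmg1 and Psmg4 passed as lower, at −1.01 and −0.45. Pomp, the maturation factor that completes core assembly, differed by −0.13 ± 0.15 with overlap, or by −0.27 without overlap when isotype replicate 1 was left out. Of the 7 measured genes for subunits and bound factors with other names, 1 passed the threshold, as lower. It was Usp14, a deubiquitinase that docks on the proteasome and trims ubiquitin chains. Usp14 had 7.61, 7.12, 7.38 and 7.23 on the anti-IL-10R arrays, against 7.92, 7.99, 8.02 and 8.12 on the isotype arrays. The groups were clearly apart, and the difference was −0.68 ± 0.13 (adjusted p = 0.0334; 0.0124 without isotype replicate 1). Leaving out 1 array in turn gave adjusted p between 0.0124 and 0.111, and the call ended without any of isotype replicates 2, 3 and 4 and anti-IL-10R replicates 2, 3 and 4. Uchl5, the other docked deubiquitinase, differed by −0.51 ± 0.19 with overlap (adjusted p = 0.177; −0.66 and adjusted p = 0.0282 without isotype replicate 1). Adrm1, the receptor that recruits Uchl5, was not analysed here. The list median was −0.03 with 5 of 7 genes below 0, or −0.11 with 6 of 7 below 0 without isotype replicate 1.

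The activators and the inhibitor of the core gave 0 calls among 5 genes (median −0.12). Psme3, the nuclear activator, differed by −0.29 ± 0.11 without overlap (SE, limma adjusted p = 0.195). Without isotype replicate 1 its difference was smaller in size, at −0.21 (adjusted p = 0.171). The interferon-induced activator genes Psme1 and Psme2 differed by −0.12 ± 0.10 and 0.08 ± 0.12. Psmf1, the inhibitor, differed by −0.17 ± 0.12. Among 9 measured genes of the transcriptional control of the proteasome, 0 passed and 4 were below 0 (median 0.17, or −0.04 without isotype replicate 1). Nfe2l1, which encodes NRF1, differed by 0.18 ± 0.12 (adjusted p = 0.477), or by 0.07 without isotype replicate 1. Nfyb, a subunit of NF-Y, differed by −0.38 ± 0.13 without overlap (adjusted p = 0.131; 0.0461 without isotype replicate 1). The other NF-Y subunit genes, Nfya and Nfyc, differed by −0.09 and 0.17, and both lay below 0 without isotype replicate 1 (−0.20 and −0.04). Among 8 measured genes of ubiquitin supply and substrate shuttling, 0 passed (median −0.04, 5 below 0, or −0.11 with 7 below 0 without isotype replicate 1). Rad23b, a shuttle that carries ubiquitinated substrates, and Ubqln2 differed by −0.20 ± 0.17 and −0.11 ± 0.10. Rad23b passed as lower without isotype replicate 1 (−0.37, adjusted p = 0.0492), and Vcp, the segregase that extracts substrates, differed by 0.07 ± 0.17, or by −0.11 without that array.

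Markers of other cells were mostly dim, with 2 of 9 B cell, 2 of 7 monocyte or macrophage, 3 of 5 dendritic cell, 0 of 6 neutrophil, 2 of 4 NK cell, 2 of 4 CD4 T cell and 0 of 2 erythroid markers above the limit of 5.24. Those of B cells, the lineage of the leukaemia, had a difference below 0 in 8 of 9 measured genes, with a mean of 4.73 to 4.84 on the anti-IL-10R arrays, against 4.74 to 5.24 on the isotype arrays. The mean over 7 monocyte or macrophage markers was 5.15 to 5.26 on the anti-IL-10R arrays, against 5.15 to 5.56 on the isotype arrays, and that of 4 CD4 T cell markers was 5.08 to 5.38 against 5.15 to 5.94. The mean over 6 neutrophil markers was 3.98 to 4.13 on the anti-IL-10R arrays, against 4.01 to 4.35 on the isotype arrays. Dendritic cell (5 measured), NK cell (4) and erythroid (2) markers had means of 5.36 to 5.57, 6.66 to 6.93 and 4.85 to 5.22 on the anti-IL-10R arrays, against 5.34 to 5.47, 6.70 to 6.97 and 4.64 to 5.31 on the isotype arrays. The means of the monocyte or macrophage, CD4 T cell, neutrophil, NK cell and erythroid markers were highest, among the isotype arrays, on replicate 1. The part of these cells in the proteasome values was not tested.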

How the data were processed

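RNA of sorted mouse CD8 T cells was hybridised to 8 arrays of 1 colour, 4 per group. The deposited values are log2 signals per transcript cluster, which the authors made with the software Affymetrix Power Tools, as the submitters' processing notes list it. Summarisation, normalization and the tool's version: not given in the sources used here. Of 41345 rows, 23521 carry 1 gene symbol, 1814 several and 16010 none in the platform annotation. Symbols were looked up by gene identifier in RefSeq, and 0 differed. The brightest row of each gene was kept. Genes with a mean of at least 5.24, the median of all row means, were tested, which left 12019. Differences were fitted in R 4.3.3 with limma 3.58.1 (lmFit, eBayes), two-sided, with Benjamini-Hochberg adjustment over all tested genes and a threshold of 0.05. The number of arrays limits the precision.

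Groups came from the sample descriptions. Both groups number their arrays 1 to 4. The numbers were not taken as pairs. Every member is accounted for. Per-array values are given for members past the threshold, the 2 with the smallest p in each ring and among the Psmd genes, the catalytic subunits, Psmd4, Psmd14, Psma8 and Psmc3ip. Those of Psmc6, Psmd10, Psmd12 and Psmb8 were added after the values were seen. Of each pathway list the genes past the threshold and the 2 with the smallest p are named, and other list genes were named after the values were seen. The members and lists were chosen with earlier results of these data known. The pipeline was tested on simulated data, in which 200 of 12019 genes were given a difference. The fit recovered 0% of differences of 0.3 in size, 26% of those of 0.5, 80% of those of 1 and 92% of those of 2. In the reported fit every member but Psmc3ip differed by less than 0.5. A missing call therefore does not show that a gene was unchanged. Alternatives were no filter, a stricter filter (6.97), quantile normalization, centring, the mean over a gene's rows, a trended and robust variance, array weights (statmod 1.5.0), a replicate block, another threshold and each array left out.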

Additional observations from a re-analysis of the deposited data

Results flagged for a closer look

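Dixon's criterion for 4 arrays was applied to 94 sets, the isotype set and the anti-IL-10R set of each gene looked at. These genes were the members and, of each pathway list, the 2 with the smallest p. Other pathway genes were not looked at. Among them, Psmg1 had 7.07 on isotype replicate 1, against 8.26 to 8.35 on the other isotype arrays. Vcp, also not looked at, had 9.76 there, against 10.44 to 10.50. Chance flags about 1 in 20 sets. The criterion flagged 8 sets, all of isotype arrays, and in all 8 isotype replicate 1 lay far below the other 3. The anti-IL-10R sets cannot hold that array, and the share flagged over all tested genes was not counted. Of the members, Psmc6 had 8.88 there, against 9.79 to 9.89 in the other isotype arrays, Psmd6 9.16 against 9.75 to 9.87, Psmd9 6.91 against 7.49 to 7.57, Psmd10 7.47 against 9.06 to 9.26, and Psmc3ip 6.35 against 7.15 to 7.30. Of the pathway genes looked at, Psmb10 had 11.04 against 11.48 to 11.50, Psmb9 11.28 against 11.53 to 11.57, and Nfe2l1 8.26 against 8.64 to 8.71. None of the 14 core particle genes was among them, but whether core genes differ from other genes in this was not tested.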

How the results depend on the processing

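The medians of the core and regulatory genes stayed below 0 in every alternative run, at −0.15 to −0.27 and −0.21 to −0.40. The core minus regulatory difference stayed above 0 but ranged from 0.0049 without isotype replicate 3 to 0.11 without isotype replicate 1, and was 0.021 without isotype replicate 4 and 0.025 without anti-IL-10R replicate 4. The number of members called was 0 of 33 in the reported fit, and every member called in another setting was lower. It was 2 of 31 with the stricter filter, where 460 of 6636 tested genes were called. The mean of all rows gave 1 of 33, where 311 of 11881 genes were called. Among 33 members and 12019 genes, it was 5 with quantile normalization and 2 with the trended and robust variance. Among as many it was 12 with array weights and 5 at an adjusted p below 0.1. It was 0 to 8 with 1 array left out, 8 without isotype replicate 1 and 0 without each of the others. It stayed at 0 without a filter and with centring. Array weights and quantile normalization were the settings that, beside leaving out isotype replicate 1, called 5 or more members at the reported threshold. Over all genes the count of 304 of 12019 became 145 of 22180 without a filter (78 lower, 67 higher). It was 460 of 6636 with the stricter one (221, 239) and 311 of 11881 with the mean of all rows (161, 150). Of 12019 genes, 631 were called with quantile normalization (427, 204), 117 with centring (75, 42) and 422 with the trended and robust variance (197, 225). Of as many, 1469 were called with array weights (815, 654) and 896 at an adjusted p below 0.1 (420, 476). With 1 array left out the count ranged from 3 of 12048 (isotype replicate 4) to 1112 of 11941 (isotype replicate 1). Deviations of same-numbered arrays from their group means correlated at −0.05, 0.12, 0.02 and −0.16 for numbers 1 to 4. With 4 arrays per group these correlations cannot exclude that the arrays were paired. The array titles also share a number between the groups for replicates 2 to 4, but not for replicate 1. With the replicate block 4 genes and 0 members were called, and Usp14 lost its call (adjusted p = 0.117). Psma8 turned to 0.0054 with array weights, 0.015 without isotype replicate 1 and 0.020 without anti-IL-10R replicate 1. Psmd4 ranged from −0.18 without isotype replicate 1 to 0.013 without isotype replicate 2. The causes were not tested.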
